A study of Mus musculus with 12 samples.

Results

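RNA of bone marrow stromal cells (BMSCs) was compared with RNA of skin fibroblasts (Fibs), both grown from mice. Genes were taken into the comparison where the FPKM, the fragment number scaled by transcript length and library total, reached 1 in 3 or more of the 6 BMSC and Fib libraries. This limit was met by 57 of the 99 genes analysed here. The BMSCs were wild-type cells isolated from the marrow cavity of the femur and grown in low-sugar medium. The Fibs were wild-type cells grown from the skin of the ear of female C57BL/6 mice, in high-sugar medium. The cell type, the body site and the medium therefore cannot be told apart in this comparison. Each group had 3 independent cultures and no treatment, and the sources used here do not say which animals gave them. The p-values therefore measure the spread between these cultures. The series holds 12 libraries, with iPSCs and iMSCs beside the BMSCs and Fibs.

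Stromal cells of the marrow and fibroblasts of the skin are both mesenchymal cells that attach to plastic and build collagen-rich matrix. BMSCs are known for their capacity to form bone, cartilage and fat under induction and for supporting blood cell formation. Fibroblasts of different body sites keep the expression of patterning transcription factors that mark where in the body they came from. Signals of the TGF-β and fibroblast growth factor families act on both cell types through receptor kinases at the cell surface.

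The defining surface and matrix markers of these cells could hardly be read from the genes analysed here. Of 15 listed markers of marrow stromal and mesenchymal stem cells 0 were among the 99 genes, and of 14 listed skin fibroblast markers Fap was. Fap, the fibroblast activation protein, lay at 0.121 to 0.280 FPKM in BMSCs and 0.280 to 0.338 in Fibs, below the limit for testing in every library. Epithelial genes were near 0, with a summed FPKM over 4 of 11 listed genes of 0.142 to 0.165 in BMSCs and 0.0894 to 0.164 in Fibs. Over 7 of 13 listed neural, Schwann cell and muscle genes the summed FPKM was 0.388 to 0.568 in BMSCs and 0.6995 to 0.774 in Fibs. The library totals implied by the table ran from 68291033 to 73013401 counts, so the depths of the 6 libraries were close. The low counts came mostly in steps of 4, with 33 of the 40 values from 1 to 13 at exactly 4, 8 or 12.

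BMSCs and Fibs differed in the level of most of the 57 genes, but seldom by a large fold. At an adjusted p under 0.05 in edgeR's quasi-likelihood test, 47 genes differed (82.5% of the tested genes), 25 higher in BMSCs (43.9%) and 22 lower (38.6%). A gene was called differentially expressed where the absolute log2 fold change was also over 1, which is a fold of 2, and this left 12 genes (21.1%). Of these, 4 were higher in BMSCs (7.02%) and 8 were lower (14%). All 12 called genes had groups of libraries that did not overlap, as 49 of all 57 tested genes did (86%). The median log2 fold change of the 57 genes was 0.13, with quartiles of -0.38 and 0.40. Replicates lay close together: the median coefficient of variation over the genes was 5.60% in BMSCs and 6.67% in Fibs. On the log2(FPKM + 1) scale, the distance over the 57 genes was 6.09 to 6.61 between a BMSC and a Fib library, 1.14 to 1.53 between BMSC libraries and 1.38 to 1.69 between Fib libraries.

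**Figure D1:**
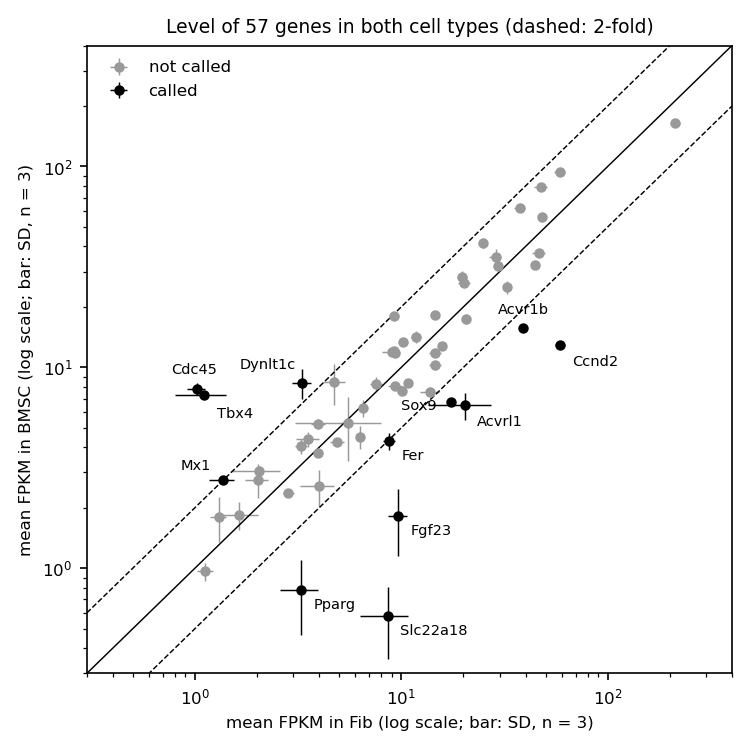
Mean FPKM of the 57 genes in BMSCs against Fibs, on log axes, with SD bars of 3 libraries. The solid line marks equal levels and the dashed lines a fold of 2. The 12 called genes are black and named. Slc22a18, Fgf23 and Ccnd2 lay furthest below the lines, and Cdc45 and Tbx4 furthest above.

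Genes of the cell cycle differed in opposite directions. Cdc45, a part of the helicase that opens DNA at replication forks, was higher in BMSCs, and Ccnd2, which encodes cyclin D2, a regulator of entry into the cycle, was lower. The FPKM of Cdc45 was 7.19, 8.30 and 7.98 in the 3 BMSC libraries and 1.03, 0.908 and 1.12 in the Fib libraries. Every BMSC library thus stood far above every Fib library, and the difference was 7.63-fold (95% interval 6.14 to 9.48, adjusted p = 3.48e-08 in edgeR), the largest rise among the 57 genes. Cdc45 lies on chromosome 16 from 18780447 to 18811972, and its exons overlap those of Ufd1 on the opposite strand. Ccnd2 had an FPKM of 13.1, 13.1 and 12.5 in BMSCs and 61.7, 59.2 and 55.1 in Fibs. It was 4.56-fold lower in BMSCs (95% interval 4.18 to 4.96, adjusted p = 3.30e-10), with the smallest p of all 57 genes. Ccnd2 lies on chromosome 6 from 127125162 to 127152193, where its exons overlap those of other genes on the opposite strand. The third tested gene of this list, Brat1, a regulator of the DNA damage response, was 1.23-fold higher in BMSCs, with 4.04 ± 0.350 FPKM (SD, n = 3) against 3.28 ± 0.213 (adjusted p = 0.0250 in edgeR). Of 17 listed cell cycle genes, 3 were thus tested, 2 were higher and 1 lower.

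**Figure D2:**
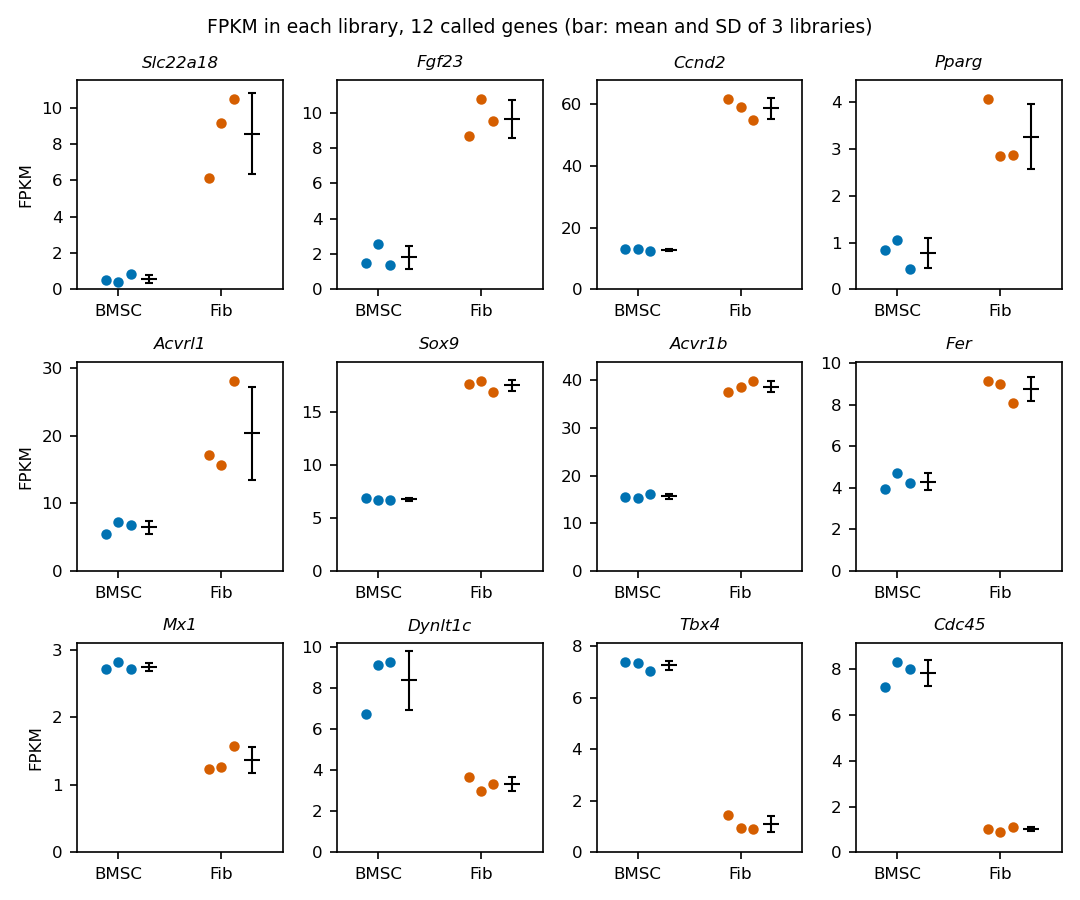
FPKM of the 12 called genes in each library, with BMSC libraries in blue and Fib libraries in orange, and the mean with its SD beside them (n = 3). Each vertical axis starts at 0 and has its own scale. The groups did not overlap for any of the 12 genes, and Ccnd2, Sox9 and Acvr1b had the tightest replicates.

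Among patterning and lineage transcription factors, Tbx4 was higher in BMSCs and Sox9 and Pparg were lower. Tbx4 is a T-box factor that acts in the developing hindlimb, and its FPKM was 7.40, 7.34 and 7.06 in BMSCs and 1.47, 0.945 and 0.922 in Fibs. It was 6.52-fold higher in BMSCs (95% interval 4.84 to 8.77, adjusted p = 7.82e-07 in edgeR). The gene lies on chromosome 11 from 85886422 to 85916097. Its neighbour Tbx2, another T-box factor of limb and organ patterning, was below the limit for testing in both cell types, with 4, 23 and 16 counts in BMSCs and 146, 85 and 72 in Fibs, so its higher libraries were those of Fibs. Sox9, the transcription factor that directs chondrocyte formation, had an FPKM of 6.91, 6.68 and 6.70 in BMSCs against 17.6, 17.9 and 16.9 in Fibs. The difference was 2.59-fold (95% interval 2.35 to 2.84, adjusted p = 2.16e-08), lower in BMSCs. Sox9 was the 1 gene analysed of 8 listed for chondrocytes and ear cartilage, and other cartilage markers were not analysed here. Pparg, the nuclear receptor that directs fat cell formation, was low in both, with 0.851, 1.06 and 0.436 FPKM in BMSCs and 4.07, 2.85 and 2.88 in Fibs. It was 4.17-fold lower in BMSCs (95% interval 2.59 to 6.70, adjusted p = 0.000149). Of 20 listed factors 3 were tested, and all 3 passed the fold threshold as well, against 21.1% of all tested genes. Of the 5 tested genes listed as general transcription and chromatin regulators, 0 passed it. Both lists were drawn with earlier results of these data known, so these shares are not a result about lineage factors.

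Both tested type I receptors of the TGF-β family were lower in BMSCs. Acvr1b, which encodes the activin receptor ALK4, had an FPKM of 15.5, 15.3 and 16.2 in BMSCs and 37.6, 38.5 and 39.9 in Fibs. It was 2.47-fold lower in BMSCs (95% interval 2.30 to 2.66, adjusted p = 4.08e-09 in edgeR). Acvrl1, which encodes ALK1, a receptor of bone morphogenetic proteins known from endothelial cells, had 5.39, 7.27 and 6.76 FPKM in BMSCs and 17.1, 15.7 and 28.1 in Fibs. The Fib level was set apart by replicate 3, but even the lowest Fib library was above every BMSC library, and the gene was 3.13-fold lower in BMSCs (95% interval 2.28 to 4.31, adjusted p = 4.39e-05). Acvrl1 and Acvr1b lie near each other on chromosome 15, from 101128522 to 101145336 and from 101174067 to 101213684, and the exons of Acvrl1 overlap a gene on the opposite strand. Grasp, a further gene of this region and a scaffold protein of membrane receptors, lay from 101224188 to 101232756 and had 8.12 ± 0.329 FPKM in BMSCs and 9.34 ± 0.742 in Fibs (SD, n = 3, adjusted p = 0.115).

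Among ligands, Fgf23, the phosphate-regulating hormone that bone cells secrete, was lower in the marrow-derived cells. Its FPKM was 1.5, 2.57 and 1.37 in BMSCs and 8.66, 10.8 and 9.52 in Fibs. The difference was 5.32-fold (95% interval 3.65 to 7.76, adjusted p = 1.03e-05 in edgeR), and Fgf23 lies on chromosome 6 from 127072902 to 127081408, close to Ccnd2. Wnt9a, a Wnt ligand, was near the limit for testing with 0.968 ± 0.0998 FPKM in BMSCs and 1.13 ± 0.0988 in Fibs (SD, n = 3), and did not pass (log2 fold change -0.22, 95% interval -0.64 to 0.20, adjusted p = 0.297). Axin2, a target of Wnt signalling, was below the limit in every library, at 0.591 to 0.713 FPKM in BMSCs and 0.757 to 0.994 in Fibs.

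Transducers inside the cell showed smaller differences, in both directions. Fer, a tyrosine kinase of cell adhesion and growth factor signalling, was 2.04-fold lower in BMSCs (95% interval 1.75 to 2.37, adjusted p = 6.78e-06 in edgeR), with 3.92, 4.72 and 4.22 FPKM against 9.16, 8.99 and 8.09. Its log2 fold change of -1.03 lay at the fold threshold and was -0.97 without BMSC replicate 1 and -0.99 without Fib replicate 1, which ended the call while the adjusted p stayed under 0.05. With limma on log2(FPKM + 1) Fer was at -0.88, also under the threshold. The G protein subunits went apart: Gnai3, of the inhibitory class, was lower in BMSCs with 32.4 ± 1.09 FPKM against 44.4 ± 1.61, and Gna12, of another class, was higher with 26.4 ± 0.869 against 20.1 ± 1.40 (SD, n = 3). Their log2 fold changes were -0.45 (standard error 0.0472, adjusted p = 1.26e-05) and 0.39 (standard error 0.0604, adjusted p = 0.000184). Ccm2, a scaffold of endothelial junction signalling, was 1.32-fold higher in BMSCs (adjusted p = 0.00187). The membrane protein gene Gpr107 and the endosomal adaptor gene Tom1l2 were 1.3-fold and 1.33-fold lower (adjusted p = 2.85e-05 and 3.02e-05). Rem1, a small GTPase, had 1.8 ± 0.455 FPKM in BMSCs and 1.31 ± 0.115 in Fibs and did not pass (adjusted p = 0.0795). Over the whole list of growth factors, receptors and transducers, 12 genes were tested, 3 were higher in BMSCs, 7 lower and 2 did not pass. Of all tested genes 82.5% passed, 43.9% higher in BMSCs and 38.6% lower. The median log2 fold change of the list was -0.39 against 0.13 for all tested genes. The list was drawn with earlier results of these data known, so these values are not a result about signalling genes.

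Genes of the respiratory chain were higher in BMSCs. By the KEGG annotation in the table, 4 tested genes belonged to oxidative phosphorylation, and all 4 passed the test with higher levels in BMSCs, against 43.9% of all tested genes. This group was picked after the values were seen, and the other KEGG groups looked at were mixed. PI3K-Akt signalling and focal adhesion each had 2 genes higher and 2 lower. Thermogenesis, which holds the same 4 genes and Pparg, had 4 higher and 1 lower. The 4 genes of oxidative phosphorylation encode parts of different complexes of the mitochondrial inner membrane: Ndufa9 of complex I, Sdhd of complex II, Cox5a of complex IV and Atp5pb of the ATP synthase. Ndufa9 had an FPKM of 43.8, 42.4 and 39.2 in BMSCs and 24.8, 23.8 and 26.2 in Fibs, a 1.68-fold difference (95% interval 1.52 to 1.85, adjusted p = 2.28e-06 in edgeR). Sdhd, which anchors succinate dehydrogenase in the membrane, was the most abundant of the 4, with 96.7, 93.1 and 90.4 FPKM in BMSCs against 55.4, 57.6 and 62.3 in Fibs. The difference was 1.6-fold (95% interval 1.47 to 1.74, adjusted p = 2.28e-06). Cox5a had 26.0, 30.0 and 28.5 FPKM against 20.9, 18.7 and 19.4, a 1.43-fold difference (95% interval 1.28 to 1.61, adjusted p = 0.000117). Atp5pb had 38.1, 31.6 and 36.4 FPKM against 26.4, 29.8 and 29.6, and was 1.24-fold higher (95% interval 1.1 to 1.39, adjusted p = 0.00358), with its lowest BMSC library just above the highest Fib library. With all 12 libraries in 1 fit Atp5pb did not pass (adjusted p = 0.0652), while the other 3 did. None of the 4 genes reached a fold of 2. The exons of Atp5pb overlap those of Wdr77 on the opposite strand, and those of Ndufa9 and Cox5a also overlap genes on the opposite strand.

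**Figure D3:**
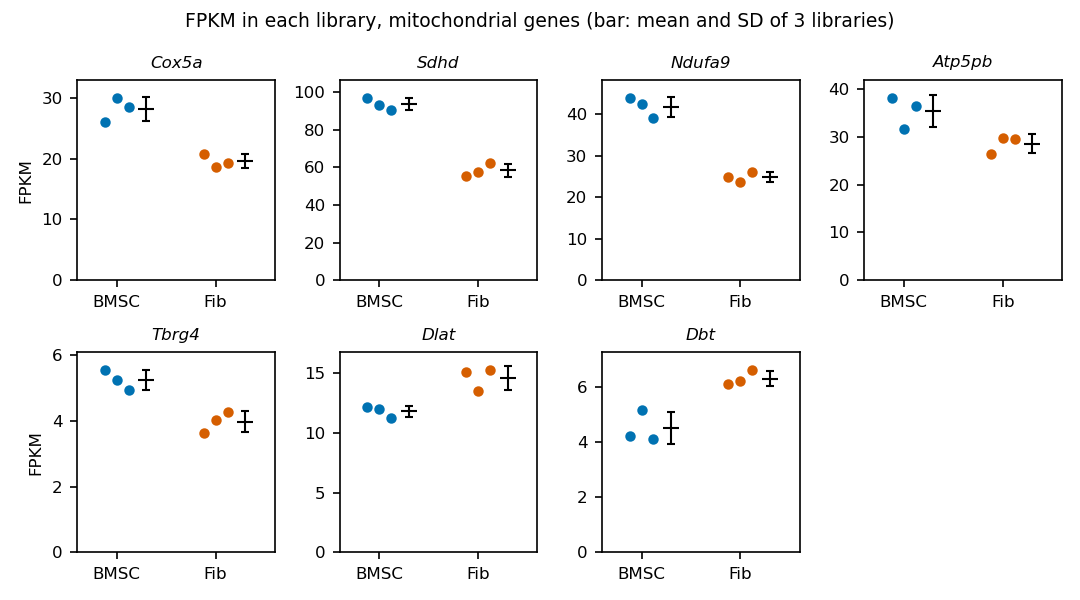
FPKM of 7 mitochondrial genes in each BMSC (blue) and Fib (orange) library, with the mean and SD of 3 libraries beside them. Each vertical axis starts at 0. Cox5a, Sdhd, Ndufa9, Atp5pb and Tbrg4 were higher in BMSCs, and Dlat and Dbt were lower.

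The promoters of these 4 genes are shown because the genes moved together. Each line is the 250 bases before the gene's start in RefSeq on GRCm38.p6, read along the gene's strand: chr9:57520982-57521231 (+) for Cox5a, chr9:50603850-50604099 (-) for Sdhd, chr6:126849145-126849394 (-) for Ndufa9 and chr3:105959264-105959513 (-) for Atp5pb. By the deposited coordinates Atp5pb runs from 105942698 to 105960099, so its window lies within the gene. That window also spans the start of Wdr77 at 105959369, so a match in it cannot be assigned to 1 of these genes. The capitals mark CTTCCG, the reverse complement of CGGAAG, which is the core that ETS family factors recognise.
Cox5a: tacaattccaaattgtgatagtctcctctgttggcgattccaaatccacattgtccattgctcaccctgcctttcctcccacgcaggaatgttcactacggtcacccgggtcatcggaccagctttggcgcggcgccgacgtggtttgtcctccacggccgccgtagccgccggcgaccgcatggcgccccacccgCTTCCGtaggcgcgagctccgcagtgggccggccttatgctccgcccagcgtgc
Sdhd: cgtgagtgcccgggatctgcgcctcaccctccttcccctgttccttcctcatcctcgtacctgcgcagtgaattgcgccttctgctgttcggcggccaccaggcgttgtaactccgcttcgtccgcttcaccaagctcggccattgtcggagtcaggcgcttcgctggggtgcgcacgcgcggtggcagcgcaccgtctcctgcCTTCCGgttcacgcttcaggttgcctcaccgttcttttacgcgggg
Ndufa9: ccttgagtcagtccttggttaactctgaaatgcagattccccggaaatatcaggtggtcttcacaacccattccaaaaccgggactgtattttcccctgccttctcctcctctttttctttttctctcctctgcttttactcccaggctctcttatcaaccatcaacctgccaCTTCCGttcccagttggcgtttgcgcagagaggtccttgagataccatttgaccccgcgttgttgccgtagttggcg
Atp5pb: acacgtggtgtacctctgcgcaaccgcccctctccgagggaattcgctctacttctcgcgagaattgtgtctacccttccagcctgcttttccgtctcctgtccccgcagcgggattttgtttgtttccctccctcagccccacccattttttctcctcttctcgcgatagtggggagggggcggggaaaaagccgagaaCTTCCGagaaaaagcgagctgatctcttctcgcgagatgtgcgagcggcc
The core CGGAAG was searched on both strands after the sequences had been seen, and it lay once in each of the 4 windows, beginning 54, 46, 77 and 50 bases before the start in this order. Among all 32851 RefSeq promoters of this length, 13.6% held it, and so did 17 of the 47 promoters matched to tested genes (36.2%). The longer form CCGGAAG, which contains the core, lay in the Sdhd window and in 6.91% of all promoters. An exact 10-base form of the motif of NRF1, a factor known for respiratory chain genes, lay in none of the 4 windows and in 0.782% of all promoters. These are matches of letters and were not tested as binding sites.

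The other mitochondrial genes did not all share this direction. Tbrg4, which encodes an RNA-binding protein of the mitochondrial matrix, was 1.32-fold higher in BMSCs with 5.23 ± 0.293 FPKM against 3.97 ± 0.315 (SD, n = 3, adjusted p = 0.0111 in edgeR). Dlat, the acetyltransferase subunit of pyruvate dehydrogenase, was 1.24-fold lower with 11.8 ± 0.481 against 14.6 ± 0.985 (adjusted p = 0.00161). Dbt, the corresponding subunit of the complex that breaks down branched-chain amino acids, was 1.40-fold lower with 4.51 ± 0.585 against 6.32 ± 0.260 (adjusted p = 0.00486). Dlat and Dbt thus lay opposite to the tested respiratory chain genes, though Dbt did not pass with all 12 libraries in 1 fit (adjusted p = 0.120 in edgeR). Of the 6 tested genes in the list for mitochondrial respiration and energy, 4 were higher and 2 lower, with a median log2 fold change of 0.46.

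The tested matrix and adhesion genes differed by less than a fold of 2, and Itga5 and Egfl6 were the abundant ones. Itga5, the integrin subunit that binds fibronectin, had an FPKM of 61.5, 61.4 and 63.1 in BMSCs and 37.0, 35.7 and 40.0 in Fibs, a 1.65-fold difference (95% interval 1.53 to 1.79, adjusted p = 7.82e-07 in edgeR). Egfl6, a secreted matrix protein, had 80.0, 82.1 and 75.6 FPKM against 50.3, 48.2 and 43.5, a 1.67-fold difference (95% interval 1.52 to 1.84, adjusted p = 2.08e-06), which did not pass with all 12 libraries in 1 fit (adjusted p = 0.220 in edgeR). Both were higher in every BMSC library. Cav2, a protein of the membrane pits called caveolae, was lower in BMSCs with 7.07, 7.68 and 7.95 FPKM against 14.9, 14.2 and 12.2. The difference was 1.82-fold (95% interval 1.57 to 2.11, adjusted p = 1.81e-05). Arvcf, a catenin of cell junctions, was 1.2-fold lower (adjusted p = 0.0474), and its exons overlap a gene on the opposite strand. Of 4 tested genes in this list 2 were higher and 2 lower.

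Among genes of RNA processing and translation, Hnrnpd and Wdr77 were higher in BMSCs by nearly the fold threshold. Hnrnpd, which encodes the AU-rich element binding protein AUF1, had an FPKM of 18.8, 17.8 and 17.6 in BMSCs and 8.81, 9.16 and 9.77 in Fibs. The difference was 1.95-fold (95% interval 1.8 to 2.12, adjusted p = 1.05e-07 in edgeR), and the log2 fold change of 0.97 became 1.01 without Fib replicate 3, which added Hnrnpd to the called genes. Wdr77, the partner of the arginine methyltransferase PRMT5, had 6.30, 9.10 and 10.0 FPKM against 4.14, 5.29 and 4.79. It was 1.79-fold higher (95% interval 1.39 to 2.30, adjusted p = 0.000898), with BMSC replicate 1 the nearest to the Fibs, and without that library the log2 fold change of 0.84 became 1.01, over the threshold. Dazap2, a small proline-rich protein, was 1.16-fold higher with 56.0 ± 1.37 FPKM against 48.2 ± 0.878 (SD, n = 3, adjusted p = 0.000850). Mcts1, a factor of translation reinitiation, was 1.23-fold lower with 12.8 ± 0.344 against 15.7 ± 0.568 (adjusted p = 0.0141). Xpo6, the nuclear exporter of actin, had 3.75 ± 0.0799 and 3.94 ± 0.250 FPKM and did not pass (log2 fold change -0.07, 95% interval -0.20 to 0.07, adjusted p = 0.297). Of the 5 tested genes 3 were higher, 1 lower and 1 did not pass.

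Slc22a18, a membrane transporter gene of an imprinted cluster, was lower in BMSCs by the largest fold among the 57 genes. Its FPKM was 0.522, 0.388 and 0.829 in BMSCs and 6.11, 9.15 and 10.5 in Fibs, and the difference was 14.7-fold (95% interval 9.05 to 23.7, adjusted p = 2.08e-06 in edgeR). It met the limit for testing through the Fib libraries alone, as the 1 gene of the 57 with every library of a group under the limit, so that a difference was fixed by its selection. H19, a noncoding RNA of a neighbouring imprinted cluster on chromosome 7, was also lower, with 2.45, 3.14 and 2.10 FPKM in BMSCs and 4.13, 3.18 and 4.66 in Fibs. The difference of H19 was 1.55-fold (95% interval 1.12 to 2.15, adjusted p = 0.0177), and BMSC replicate 2 lay just below Fib replicate 2. Slc22a18 lies from 143473736 to 143499334 and H19 from 142575529 to 142578143.

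Other metabolic enzymes differed little. Scpep1, a serine carboxypeptidase, was the most abundant of the 57 genes in both cell types, with 167, 160 and 166 FPKM in BMSCs and 210, 204 and 224 in Fibs, and was 1.29-fold lower in BMSCs (95% interval 1.2 to 1.40, adjusted p = 7.27e-05 in edgeR). Galnt1, a transferase of O-linked glycosylation, was 1.43-fold lower (adjusted p = 6.77e-05). Rtca, an RNA phosphate cyclase, was 1.26-fold higher (adjusted p = 0.00359) and Hddc2, a nucleotidase, 1.48-fold higher (adjusted p = 0.0259). Gmpr, an enzyme of guanine nucleotide recycling, had 2.77 ± 0.523 FPKM in BMSCs and 2.01 ± 0.259 in Fibs (SD, n = 3) and did not pass (adjusted p = 0.0551). Together with Slc22a18, 7 genes of this list were tested, 2 were higher, 4 lower and 1 did not pass.

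General transcription and chromatin regulators differed by small folds or did not pass. Klf6, a zinc finger factor induced by growth signals, was 1.3-fold lower in BMSCs with 25 ± 1.77 FPKM against 32.6 ± 0.974 (SD, n = 3, adjusted p = 0.000149 in edgeR). Mnt, a repressor that shares its partner MAX with Myc, was 1.31-fold higher with 13.3 ± 0.239 against 10.2 ± 0.519 (adjusted p = 0.000207). Zfp385a, a zinc finger protein, was 1.2-fold higher (adjusted p = 0.0169). Tfe3, a regulator of lysosome genes, had 8.31 ± 0.630 and 7.57 ± 0.506 FPKM (adjusted p = 0.1003), and the Polycomb gene Scmh1 had 4.28 ± 0.193 and 4.89 ± 0.393 (adjusted p = 0.0551), so neither passed. Of 5 tested genes 2 were higher, 1 lower and 2 did not pass.

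Of the 18 listed interferon and leukocyte genes, Trim25 was the 1 tested, and Mx1 was called outside the list. Mx1, the interferon-induced GTPase, was 2.01-fold higher in BMSCs (95% interval 1.55 to 2.59, adjusted p = 0.000269 in edgeR), with 2.71, 2.82 and 2.71 FPKM against 1.24, 1.27 and 1.58. Its log2 fold change of 1.01 lay at the threshold and was 0.99 without BMSC replicate 2, 0.94 without Fib replicate 1 and 0.96 without Fib replicate 2, and each of these ended the call. It was also under the threshold with median-ratio scaling (0.97), DESeq2's own size factors (0.97) and limma on log2(FPKM + 1) (0.67) and log2(FPKM + 0.1) (0.97). With all 12 libraries in 1 fit Mx1 did not pass (adjusted p = 0.316, range 1.04e-07 to 0.316 over the alternatives). Trim25, a ubiquitin ligase of antiviral RNA sensing, was 1.18-fold lower in BMSCs with 17.4 ± 1.02 FPKM against 20.6 ± 0.627 (SD, n = 3, adjusted p = 0.00191). The summed FPKM over 7 of 18 listed interferon and leukocyte genes was 17.3 to 19.5 in BMSCs and 22.3 to 24.1 in Fibs, and Trim25 made up most of it. Itgb2, the leukocyte integrin subunit, was below the limit for testing at 0.363 to 0.803 FPKM in BMSCs and 0.620 to 0.880 in Fibs. Lck, a kinase of T cells, was also below it at 0.540 to 0.589 in BMSCs and 0.146 to 0.216 in Fibs. Most leukocyte markers were not analysed here, and a part of leukocytes in these levels was not tested.

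Of the genes of membrane traffic and motors, Dynlt1c, a light chain of the dynein motor, was higher in BMSCs. Its FPKM was 6.71, 9.10 and 9.25 in BMSCs and 3.65, 2.97 and 3.32 in Fibs, a 2.52-fold difference (95% interval 2.00 to 3.16, adjusted p = 1.82e-05 in edgeR). The mouse genome holds near-identical copies of this gene, so that the share of reads given to Dynlt1c is uncertain. Narf, a protein that binds prelamin A, was 1.32-fold higher (adjusted p = 0.000158). Trappc10, a part of a vesicle tethering complex, had 6.28 ± 0.605 FPKM in BMSCs and 6.51 ± 0.231 in Fibs (SD, n = 3, adjusted p = 0.522), and Tpd52l1, a coiled-coil protein, had 1.84 ± 0.293 and 1.64 ± 0.387 (adjusted p = 0.519), so neither passed. Outside the lists, Mkrn2, a zinc finger ubiquitin ligase, was 1.24-fold higher in BMSCs (adjusted p = 0.0275), and Gm2a, a lysosomal activator of ganglioside breakdown, 1.09-fold higher (adjusted p = 0.0297). C1d, a cofactor of the nuclear exosome, varied more within the groups than between them, with 4.35, 7.44 and 4.05 FPKM in BMSCs and 8.24, 3.49 and 4.80 in Fibs (adjusted p = 0.846).

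**Figure D4:**
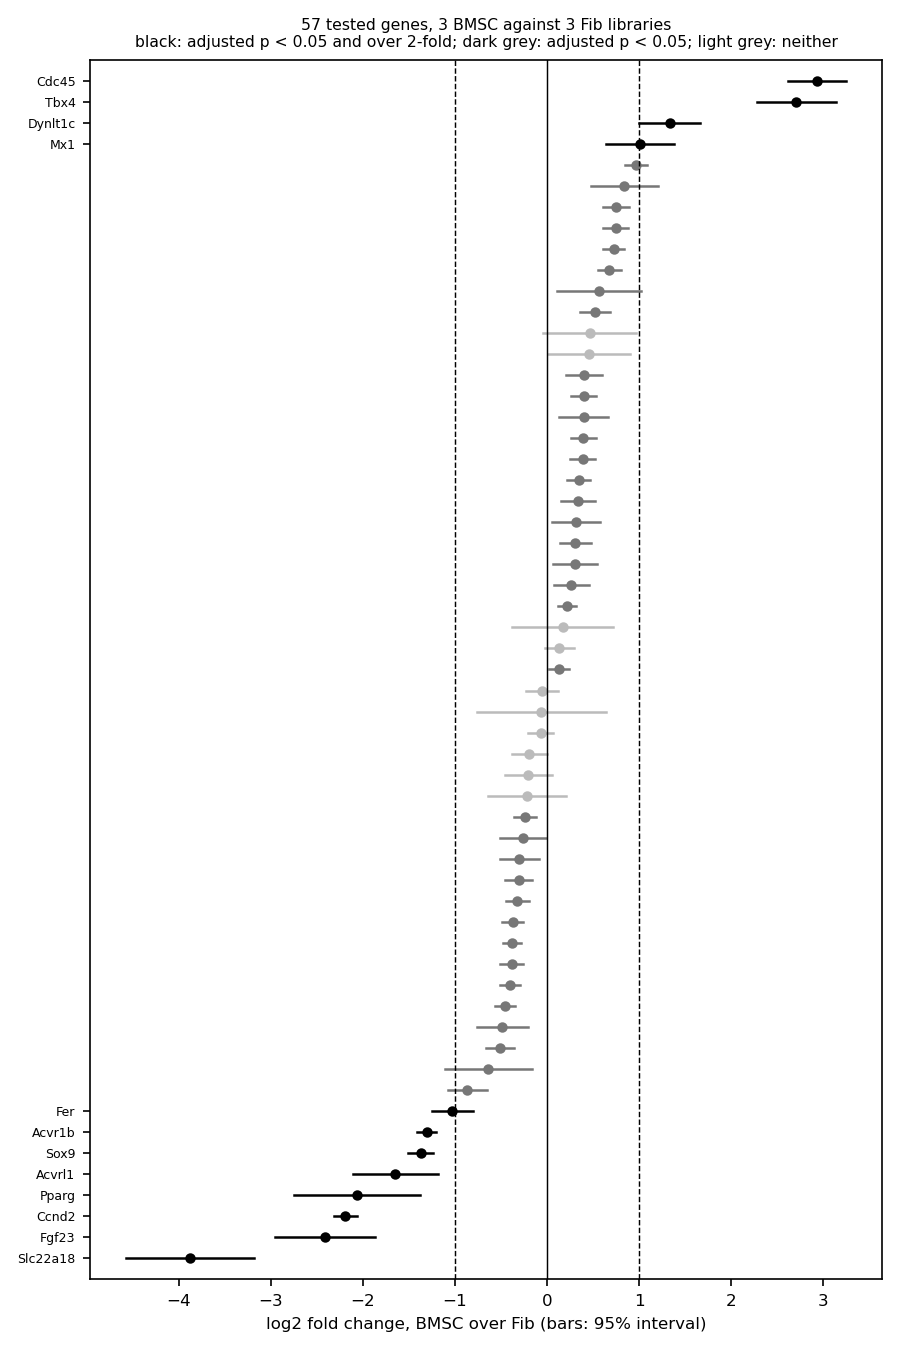
Log2 fold change of BMSC over Fib for the 57 tested genes, in order of size, with the 95% interval as a bar and the called genes named. Dashed lines mark log2 fold changes of -1 and 1. The 12 called genes are black, from Slc22a18 at -3.87 to Cdc45 at 2.93, and 35 genes that passed the adjusted p without reaching the fold threshold are dark grey.

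Many differences were small, with narrow intervals in the edgeR fit of the 6 libraries. These intervals do not cover the choice of scaling. For 26 of the 57 genes the 95% interval of the log2 fold change lay within -0.58 and 0.58, a fold of 1.5, and 21 of these 26 passed the test all the same. Among the narrowest of these 21 were Dazap2 (0.12 to 0.31), Gpr107 (-0.48 to -0.28), Gnai3 (-0.56 to -0.35), Tom1l2 (-0.51 to -0.30), Gm2a (0.02 to 0.24), Scpep1 (-0.48 to -0.26) and Trim25 (-0.36 to -0.12). The other 5 of the 26 were genes that did not pass, among them Xpo6, Trappc10 (-0.23 to 0.12) and Tfe3 (-0.03 to 0.29). The interval of C1d, -0.76 to 0.64, was wide, and a fold of 1.5 in either direction is within it.

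Several of the small differences no longer passed when 1 library was left out, in most cases whichever of several libraries it was. The adjusted p of H19 was over 0.05 without BMSC replicate 1 or 3 or Fib replicate 3 (range 0.0063 to 0.211 over the alternatives), and that of Brat1 without the same libraries (range 0.0145 to 0.103). The adjusted p of Arvcf and Gm2a was over 0.05 without Fib replicate 1 or 2 or any BMSC library (ranges 0.0278 to 0.201 and 0.0043 to 0.589). For Hddc2 this held without BMSC replicate 2 or 3 or Fib replicate 2 or 3 (range 0.00621 to 0.0865) and for Zfp385a without BMSC replicate 2 or 3 or Fib replicate 2 (range 0.00632 to 0.0717). Mkrn2 did not pass without BMSC replicate 1 or 2 or Fib replicate 2 (range 0.0158 to 0.107), Tbrg4 without BMSC replicate 1 (range 0.0026 to 0.0586) and Mcts1 without BMSC replicate 3 (range 0.000613 to 0.0962). In the other direction, Gmpr passed without BMSC replicate 2 or Fib replicate 1 (range 0.0239 to 0.202), Tfe3 without BMSC replicate 3 (range 0.0467 to 0.357) and Scmh1 without Fib replicate 3 (range 0.0191 to 0.203). The 12 called genes passed the adjusted p in every fit without a library. With all 12 libraries in 1 fit, where the other cell types set part of the spread, 13 of the 47 genes no longer passed. Besides Mx1, Egfl6 and Atp5pb, these were Gnai3 (adjusted p = 0.111), Klf6 (0.203), Dbt (0.120), Trim25 (0.135), H19 (0.211), Mkrn2 (0.107), Gm2a (0.589), Ccm2 (0.0574), Mcts1 (0.0574) and Scpep1 (0.0512).

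The limit for testing cut close to a few genes. Just inside it were Slc22a18 with 3 libraries at an FPKM of at least 1, Pparg, Tbx4 and Wnt9a with 4 and Cdc45 with 5, while the other 52 genes reached it in all 6. Just outside it, Slfn4, Dgke, Pemt and Septin1 had 2 such libraries and Mid2 had 1. Dgke, a kinase that ends diacylglycerol signalling, had 0.392, 0.584 and 0.358 FPKM in BMSCs and 1.47, 1.37 and 0.918 in Fibs. Mid2, a ubiquitin ligase of microtubules, had 0.281, 0.137 and 0.265 in BMSCs and 0.958, 1.1 and 0.775 in Fibs. Pemt, an enzyme of phosphatidylcholine synthesis, had 1.21, 0.956 and 1.73 in BMSCs and 0.427, 0.706 and 0.592 in Fibs. For each of these 3 genes the libraries of the groups did not overlap, as for 86% of the tested genes. Those of Septin1 and Slfn4 overlapped. Dgke, Mid2 and Pemt were outside the 57 genes and passed both thresholds in the fit without a filter on low values, as did Slfn4. Slfn4, a Schlafen family gene, had 0, 8 and 4 counts in BMSCs and 0, 648 and 667 in Fibs, so that Fib replicate 1 stood apart from the other two. The remaining 37 of the 42 genes outside the comparison were under 1 in all 6 libraries, and 7 of them had 0 counts throughout.

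The levels of the called genes in the iMSC and iPSC libraries are given beside these as ranges over 3 libraries, without a test. The iMSC libraries spread widely, with distances of 1.34 to 5.90 from each other over the 57 genes, and replicate 2 was the one apart. In iMSCs the FPKM of Tbx4 was 4.68 to 8.90, that of Cdc45 4.46 to 10.0 and that of Slc22a18 0.500 to 1.06. Sox9 lay at 3.58 to 6.14, Acvr1b at 13.8 to 20.9 and Acvrl1 at 7.53 to 11.8. The mean over the iMSC libraries was nearer to that of BMSCs than to that of Fibs for each of these 6 genes and for Fgf23, Ccnd2, Pparg, Fer and Mx1. It was nearer to Fibs for Dynlt1c, at 5.38 FPKM against 8.35 in BMSCs and 3.31 in Fibs. Replicate 2 moved several of these means. Cdc45 was at 10.0 in it and at 4.52 and 4.46 in the others. Fgf23 lay at 0.0676 to 2.42, Ccnd2 at 8.30 to 16.9, Pparg at 0.267 to 0.483, Fer at 2.20 to 3.29 and Mx1 at 0.230 to 6.16. For each of these, replicate 2 was the lowest and lay below every BMSC and Fib library. It was not alone in this for Fer, where all iMSC libraries did, or for Pparg, where replicate 1 did too, at 0.328. In iPSCs, Cdc45 lay at 14.5 to 15.5 FPKM and Ccnd2 at 13.3 to 14.1, while Sox9 (0.204 to 0.302), Fgf23 (0 to 0.0262) and Mx1 (0 to 0.0551) were near 0. Ccnd2 in iPSCs was thus close to the 12.9 ± 0.364 FPKM of BMSCs (SD, n = 3), and Fibs, at 58.7 ± 3.37, stood apart from both.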

How the data were processed

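RNA of 3 BMSC and 3 Fib cultures was sequenced as paired ends from poly(A) RNA. The submitters' processing notes list HISAT2 2.0.4, cutadapt 1.9 and StringTie 1.3.4d. FPKM was computed by the authors with StringTie and Ballgown and corrects for transcript length and depth. The deposited counts are whole numbers, and low ones come mostly in steps of 4, so a count need not be 1 fragment. With the counts divided by 4, 48 genes passed the adjusted p in edgeR and all 12 called genes were kept. How they were counted, and whether strand was used, is not stated in the sources used here. Exons of 20 of the 57 genes overlap a gene on the opposite strand. The notes name mm9, but 49 of the 57 genes have the start and end of GENCODE M21 on GRCm38, and the coordinates printed are those of the table.

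Library totals were the median ratio of count to FPKM and transcript length, taken over the 8 to 9 genes that have 1 transcript in GENCODE M21 and 500 or more counts (spread within a library at most 0.0795%). Counts were tested with edgeR 4.0.16 (quasi-likelihood test, totals as library sizes) in R 4.3.3 over the 57 genes, with Benjamini-Hochberg adjustment over all of them. Intervals are 95% intervals from the same fit and cover the spread between cultures. Chi-square per degree of freedom between replicates was 16.6 to 40.8, above the step of 4, so each library was kept. The test was run on simulated counts first. Alternatives used DESeq2 1.42.0 and limma 3.58.1 on log2(FPKM + 1) and log2(FPKM + 0.1). Promoters are from RefSeq on GRCm38.p6, matched by symbol for 47 of the 57 genes.

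The genes and lists were chosen with earlier results of these data known. Genes named were the largest rises and falls among the called genes, every tested gene of the lists, the genes with the narrowest intervals and every other called gene. Genes below the limit, C1d, Grasp and Mkrn2 and the KEGG groups were named after their values were seen. Lists for pancreatic and hepatic genes (2 analysed, 0 tested) and adipocytes (Pparg) gave no further result. Some tested genes that enter the counts are not reported here by name.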

Additional observations from a re-analysis of the deposited data

Results flagged for a closer look

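Clec2g, a C-type lectin gene, was below the limit for testing in every library and lay outside the comparison. It had 0 counts in each of the 3 BMSC libraries and 51, 47 and 62 counts in the Fib libraries, the lowest of them 47. This is a signal in data the comparison did not use, above the 12 counts (3 steps of 4) that were taken as the limit a count of 0 allows. Its FPKM was 0.258, 0.226 and 0.310 in Fibs, and it was called only in the fit without a filter on low values.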

How the results depend on the processing

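The 12 called genes (4 higher in BMSCs, 8 lower) all stayed called in 7 of the 17 alternatives that refit the genes, and 10 or 11 of them did in the others. Without a filter on low values 92 genes were tested and 21 were called, 15 of them lower in BMSCs, since 9 genes below the limit were added and all 12 were kept. With the adjusted p alone 47 genes differed, 25 higher and 22 lower, and at an absolute log2 fold change over 2 there were 6, 2 higher and 4 lower, which follows from the thresholds themselves. Leaving out each library in turn gave 10 to 13 called genes, 3 to 5 higher and 7 to 8 lower. With the replicate block 12 genes were called (4 higher, 8 lower) and 41 passed the adjusted p, against 47 without it. The deviations of same-numbered libraries correlated by -0.04, -0.35 and 0.20, and those of differently numbered ones by -0.40 to 0.38. With 3 libraries in each group this cannot decide whether the numbers pair the samples. With all 12 libraries in 1 fit 34 genes passed; the cause was not tested. TMM, median-ratio scaling and DESeq2's own size factors shifted the median log2 fold change by at most 0.04, and the last of these scalings and the median ratio ended the call of Mx1. Under these same scalings Gm2a did not pass (adjusted p = 0.117 in edgeR and 0.155 in DESeq2) and Scmh1 passed (0.0322 and 0.0404). Arvcf did not pass with TMM (0.0507 in edgeR), nor did Brat1 with DESeq2's own size factors (0.0599). Of 954 values of single genes under 17 alternatives, 883 kept their direction and side of the threshold, 55 no longer passed, 11 newly passed and 5 changed sign. The changes of sign were in genes that did not pass: C1d ranged from -0.3913 to 0.3477 when a library was left out, Trappc10 from -0.0969 to 0.0247 and Tpd52l1 from -0.0092 to 0.3106. Depth was even between libraries, and the genes most limited by it were those under an FPKM of 1.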
